A study of Mus musculus with 12 samples.

Results

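The comparison described here set the livers of 3 *Ahr* HKO mice against those of 3 WT mice, all fed ethanol, and covers every gene in the table. These 6 RNA-seq libraries, chosen by their genotype and diet labels, belong to a series of 12, and the other 6 came from mice of the same genotypes on an isocaloric control diet without ethanol. All mice were male on a C57BL/6 background and 10 to 12 weeks old when feeding began. *Ahr* HKO mice carried *Ahr* fl/fl and *Alb-Cre*, in which the albumin promoter drives Cre in hepatocytes, so that other liver cells keep the gene. WT mice were *Ahr* fl/fl littermates with no detectable Cre, and both genotypes therefore carried the floxed allele. Ethanol was given for 5 weeks in the Lieber-DeCarli liquid diet at 5% of the volume, which supplied 36% of the calories. Poly(A) RNA of liver tissue was sequenced, and the 3 mice of a group were drawn at random from a larger cohort. The question of the comparison is what hepatocyte AhR contributes to the liver transcriptome under chronic alcohol. The table listed 24532 genes, of which 14038 passed a filter on low counts and were tested.

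AhR is a ligand-activated transcription factor that rests in the cytosol with HSP90 chaperones, enters the nucleus on binding a ligand, pairs with ARNT and binds xenobiotic response elements. Its classical targets are the *Cyp1* enzymes and several conjugating enzymes, and its ligands include dioxins, dietary indoles and the tryptophan metabolite kynurenine. In mouse liver a large set of genes differs between males and females because growth hormone is secreted in pulses in males and more continuously in females. STAT5 carries the pulses to the nucleus, and the repressors BCL6 and CUX2 act on sex-biased genes. Ethanol itself is oxidized in the liver by alcohol dehydrogenases, CYP2E1 and aldehyde dehydrogenases.

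In ethanol-fed livers *Ahr* HKO had higher transcripts of male-biased liver genes, among them the *Cyp4a12* enzymes, *Hsd3b5* and the major urinary proteins, and higher *Bcl6*. It had lower *Cish*, *Cux2*, *Cyp2a22*, *Cyp2a5*, *Gstm3*, *Ephx1* and *Cyp1a2*, which encode a STAT5 feedback inhibitor, a female-biased repressor and enzymes of xenobiotic metabolism. Each liver was left out in turn in 6 fits. *Cish* and *Gstm3* passed in 5 of these, *Cyp2a22* and *Hsd3b5* in 2, *Cux2* and *Cyp1a2* in 1, and *Cyp2a5* and *Ephx1* in none. The 6 genes that passed in every fit were *Cyp4a12b*, *Cyp4a12a*, *Bcl6*, *Ctse*, *Hist1h2bl* and *Ces2d-ps*. At an adjusted *P* value under 0.05 in edgeR's quasi-likelihood test with Benjamini-Hochberg adjustment, 100 genes rose in *Ahr* HKO (0.712% of those tested) and 55 fell (0.392%). With a fold change (FC) above 1.5 as well, 149 genes were differentially expressed (DEGs), 96 of them higher and 53 lower, or 1.06% of the tested genes. Without adjustment, 860 genes (6.13%) had a *P* value under 0.05 together with an FC of more than 2, of which 236 were higher and 624 lower. Among all tested genes, 9.75% were higher and 11.3% lower at an unadjusted *P* value under 0.05. The median log2 FC of all tested genes was -0.01.

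**Figure D1:**
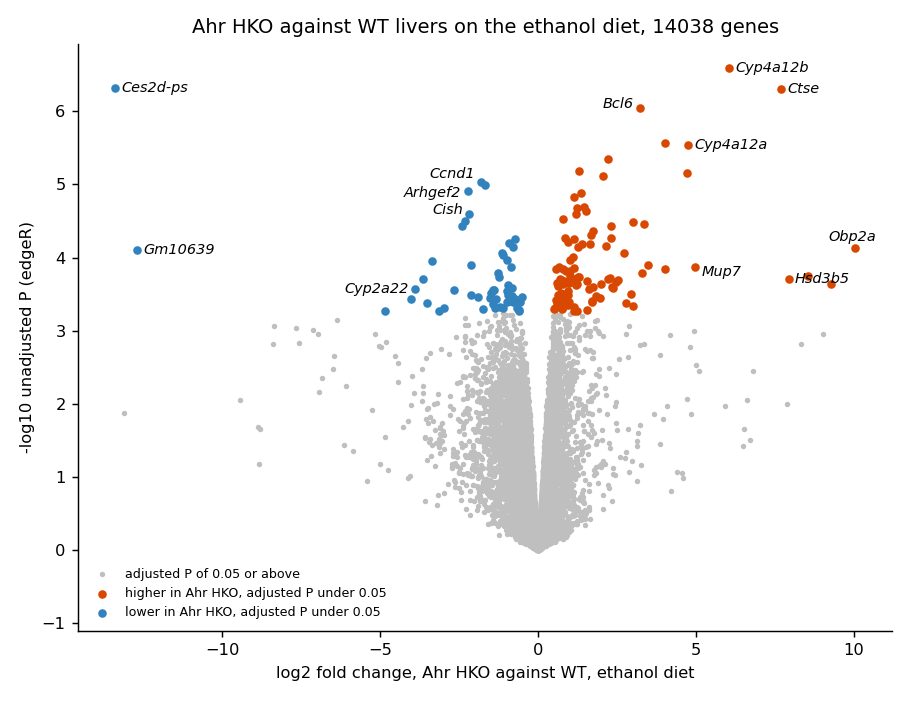
Each point is a tested gene, with its log2 FC of *Ahr* HKO against WT on the ethanol diet on the x axis and -log10 of the unadjusted *P* value on the y axis. Colored points are the 100 raised and 55 lowered genes, and the fitted values of *Ces2d-ps*, *Gm10639*, *Obp2a*, *Cfd* and *Gm12718*, which had no count in any liver of a genotype, are not sizes of a change.

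The number of DEGs depended on single livers and on the scaling. It was 22 without WT liver 1, 23 without WT liver 2 and 189 without WT liver 3. Among the *Ahr* HKO livers it was 120 without liver 1, 32 without liver 2 and 7 without liver 3. All 155 called genes kept their sign in each of these 6 fits. Their groups did not overlap in any of the 100 raised or 55 lowered genes, so the kept signs are no measure of stability. Passing genes numbered 20, 19, 86, 77, 26 and 7 of the 155 in the same order. Ranges of counted reads were 52188790 to 58186730 per WT library and 47949946 to 74336255 per *Ahr* HKO library. Scaling factors (TMM) across all 12 libraries, used for CPM, were 1.01 to 1.16 in the WT ethanol livers and 0.925 to 0.965 in the *Ahr* HKO ethanol livers. The test of the 6 libraries used factors computed within them, which are not given here. Deposited FPKM, which carry no such factor, moved the median of all genes to -0.13 on log2(FPKM + 1) and -0.21 on log2(FPKM + 0.1). At an adjusted *P* value under 0.05 and any fold, DESeq2 called 715 of 14017 genes higher and 797 lower. With limma on log2(FPKM + 1), 71 of 14038 genes were called higher and 311 lower. Counts within the gene lists below stand against these shares and those of the unadjusted edgeR test. The share of DEGs that were higher was 64.4% here, 40% with DESeq2, 55.2% with upper-quartile scaling, 52% in a fit of all 12 libraries, 26.5% on log2(FPKM + 1), 19.9% on log2(FPKM + 0.1) and 62.7% on quantile-normalized log2(FPKM + 1). At the unadjusted threshold it was 27.4% here, 42% without WT liver 2, 17.5% on log2(FPKM + 0.1) and 52.6% after quantile normalization. On the first principal component, which held 49.4% of the variance, the genotypes separated, with WT liver 3 at -8.22 and *Ahr* HKO liver 1 at 11.6 nearest to each other. Labels do not say that the 3 mice of a group came from separate litters or cages, so the *P* values measure the spread between these livers. The hepatocyte markers *Alb*, *Ttr*, *Apoa1*, *Hnf4a*, *Cps1* and *Serpina1c* were counted in every liver.

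Major urinary protein (*Mup*) genes, which encode the pheromone-binding lipocalins that male livers secrete, and other male-biased genes contributed many of the raised genes. Of 26 tested male-biased genes, 8 rose and none fell, *Bcl6* and *Mup1* (described with their own lists) among them, and their median log2 FC was 2.16 against -0.01 for all genes. Without adjustment 22 were higher and none lower at *P* under 0.05, and 21 had all *Ahr* HKO livers above all WT livers, which 13.7% of the tested genes did. *Cyp4a12b*, an arachidonic and fatty acid hydroxylase at chr4:115411624-115439034 (GRCm38), measured 1.26, 1.53 and 1.27 CPM (read counts scaled to library size) in WT livers 1 to 3 and 55.4, 98 and 117 CPM in *Ahr* HKO livers 1 to 3 (log2 FC 6.05, SE 0.33, adjusted *P* = 0.0023). Its neighbor *Cyp4a12a* (chr4:115299046-115332815) measured 6.61, 6.55 and 10.3 CPM in WT and 124, 256 and 256 CPM in *Ahr* HKO (log2 FC 4.76, SE 0.36, adjusted *P* = 0.0067). For both genes the lowest *Ahr* HKO liver, number 1, lay far above the highest WT liver. *Hsd3b5* (chr3:98618636-98645534), a male-specific steroid reductase, was at 0, 0.143 and 0.605 CPM in WT and at 12.5, 91.2 and 88.2 CPM in *Ahr* HKO (log2 FC 7.94, SE 1.14, adjusted *P* = 0.0381). WT liver 1 had no *Hsd3b5* read, and *Ahr* HKO liver 1 again had the lowest level of its group. *C6*, a subunit of the membrane attack complex, went from 13.6, 32.4 and 27.1 CPM to 85.5, 203 and 216 CPM (log2 FC 2.78, SE 0.45, adjusted *P* = 0.0438). *Susd4*, a complement regulator, went from 7.99, 4.75 and 4.17 CPM to 25.8, 20.1 and 29.8 CPM (log2 FC 2.17, SE 0.27, adjusted *P* = 0.0257), without overlap of the groups. *Ugt2b1*, a steroid glucuronosyltransferase, went from 255, 242 and 261 CPM to 410.2, 398 and 497 CPM (log2 FC 0.79, SE 0.12, adjusted *P* = 0.0383). Of these 3 genes *Ugt2b1* differed least, and its groups did not overlap either. Members that did not pass included *Elovl3*, a fatty acid elongase, at 6.51, 8.33 and 33.7 CPM against 143, 113 and 247 CPM (log2 FC 3.38, SE 0.68, adjusted *P* = 0.0687), and *Cyp7b1*, an oxysterol hydroxylase, with a log2 FC of 1.64 (adjusted *P* = 0.0633). *Cyp4a12b*, *Cyp4a12a* and *Bcl6* passed in each of the 6 fits with a liver left out, and of the 8 raised members 4 passed without WT liver 1, 4 without WT liver 2, 6 without WT liver 3, 7 without *Ahr* HKO liver 1, 3 without *Ahr* HKO liver 2 and 3 without *Ahr* HKO liver 3.

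**Figure D2:**
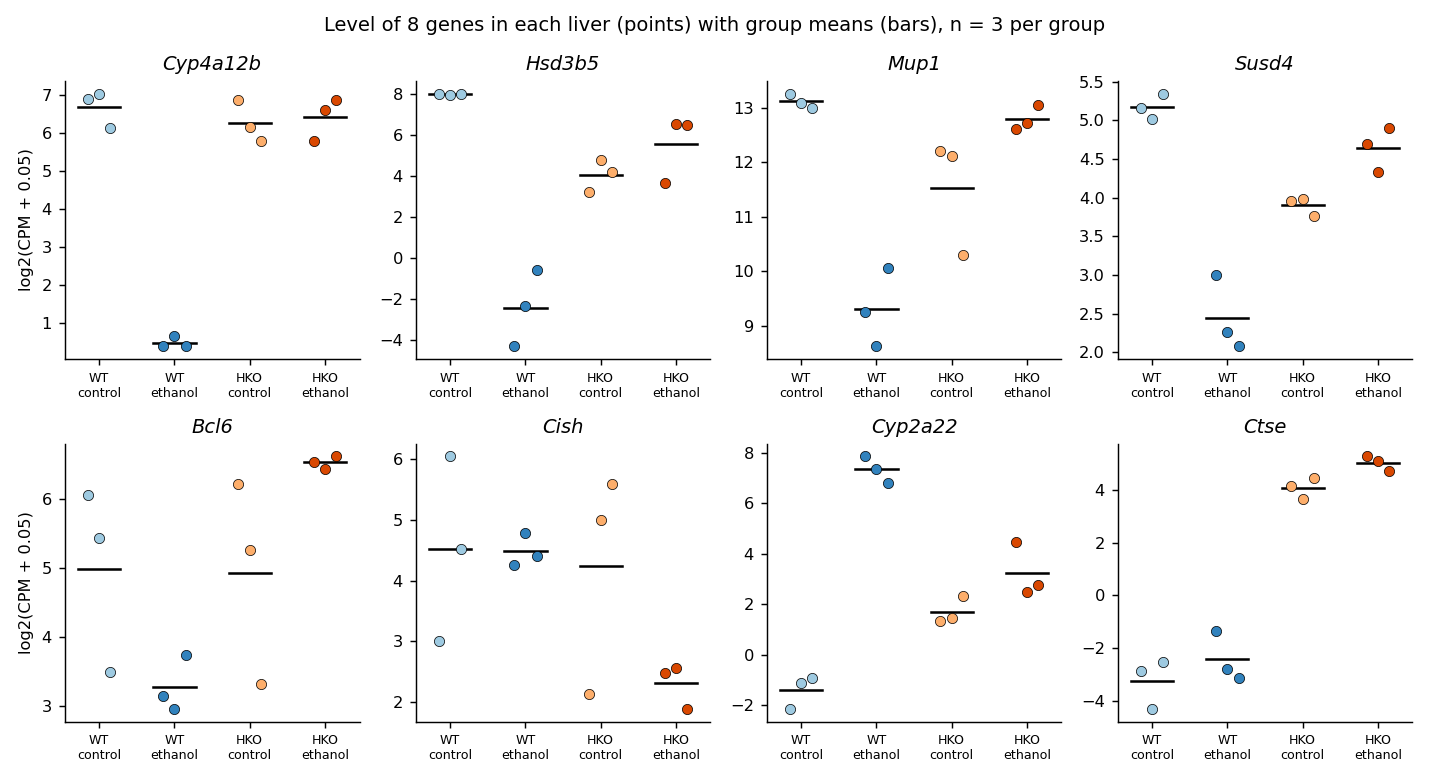
Points are single livers and bars are group means of log2(CPM + 0.05) for 8 genes on both diets, with 3 livers per group. For *Cyp4a12b*, *Hsd3b5*, *Mup1* and *Susd4* the WT ethanol livers lie below the other 3 groups, and *Ctse* separates the genotypes on both diets.

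Among the *Mup* genes, 12 of 21 tested rose and none fell, with a median log2 FC of 2.53. Without adjustment 18 were higher and none lower at *P* under 0.05. Of the list, *Mup1*, *Mup3*, *Mup20* and *Mup21* were also on the male-biased list. *Mup7* showed the largest increase, from 352, 203 and 615 CPM in WT to 4259, 14108 and 18348 CPM in *Ahr* HKO (log2 FC 4.98, SE 0.67, adjusted *P* = 0.0352). *Mup1* rose from 610.2, 394 and 1069 CPM to 6231, 6762 and 8431 CPM (log2 FC 3.37, SE 0.37, adjusted *P* = 0.02). *Mup12* rose from 282, 188 and 515 CPM to 2113, 3872 and 5077 CPM (log2 FC 3.50, SE 0.47, adjusted *P* = 0.0352). In all 3 of these genes every *Ahr* HKO liver exceeded every WT liver, and in WT the order of the livers was the same, with liver 3 highest and liver 2 lowest. *Mup14*, *Mup8*, *Mup9*, *Mup19* and *Mup10* rose with log2 FC of 3.31, 2.53, 2.47, 2.33 and 1.99. *Mup20*, which encodes the male pheromone darcin, measured 976, 1228 and 1221 CPM in WT and 1309.8, 8268 and 5651 CPM in *Ahr* HKO and did not pass (log2 FC 2.16, SE 0.59, adjusted *P* = 0.115). *Mup* transcripts are near-identical and how shared reads were assigned is not given in the sources used here, so values of single members are uncertain and the 12 calls are not independent of each other. None of the 12 passed without WT liver 1, *Ahr* HKO liver 2 or *Ahr* HKO liver 3, *Mup1* alone passed without WT liver 2, and 11 passed without WT liver 3 or without *Ahr* HKO liver 1.

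In the growth hormone and STAT5 axis, 1 gene rose and 2 fell among 18 tested. The list median was -0.20, which became -0.0421 without WT liver 1, 0.01 without *Ahr* HKO liver 2 and -0.0846 without *Ahr* HKO liver 3. *Bcl6* (chr16:23965050-23988866), a transcriptional repressor that is itself repressed by STAT5 in male liver, measured 8.82, 7.69 and 13.2 CPM in WT and 92.5, 86.7 and 98.2 CPM in *Ahr* HKO (log2 FC 3.22, SE 0.21, adjusted *P* = 0.00312). The 3 *Ahr* HKO livers lay close together, and the lowest of them was well above the highest WT liver. *Cish* (chr9:107296659-107302784), an immediate STAT5 target that inhibits cytokine receptor signaling, measured 19.1, 27.6 and 21.2 CPM in WT and 5.54, 5.83 and 3.63 CPM in *Ahr* HKO (log2 FC -2.17, SE 0.23, adjusted *P* = 0.0181). *Cux2*, a female-biased repressor, measured 2.13, 2.29 and 0.812 CPM in WT and 0.17, 0.139 and 0.293 CPM in *Ahr* HKO (log2 FC -3.14, SE 0.53, adjusted *P* = 0.0489). WT liver 3 had the lowest *Cux2* among the WT livers. *Socs2*, a further STAT5-induced inhibitor, was at 9.44, 26.9 and 14.4 CPM in WT and 4.01, 4.72 and 4.64 CPM in *Ahr* HKO, and its groups did not overlap, but it did not pass (log2 FC -1.93, SE 0.37, adjusted *P* = 0.0638). Transcripts of the receptor *Ghr*, of *Stat5a* and *Stat5b*, and of *Igf1*, the main endocrine product of the pathway, gave log2 FC of 0.47, -0.11, -0.01 and 0.46 with adjusted *P* values of 0.317, 0.816, 0.988 and 0.181. *Bcl6* passed in all 6 fits with a liver left out, *Cish* in 5 of them but not without *Ahr* HKO liver 3, and *Cux2* only without WT liver 3. *Bcl6* and *Cish* also varied within groups on the control diet. *Bcl6* was 66.3, 43.3 and 11.1 CPM in WT and 74.1, 38.3 and 9.9 CPM in *Ahr* HKO there, and *Cish* was 7.99, 66.3 and 22.9 CPM in WT and 4.31, 31.9 and 48.1 CPM in *Ahr* HKO.

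The promoters of *Cish* and *Bcl6*, the axis genes with the lowest *P* values in each direction, are shown because both hold the STAT5 palindrome TTCNNNGAA (the same on both strands), written in capitals. RefSeq sequences of GRCm38.p6 run from 250 bases before to 50 bases after an annotated start, 5′ to 3′ on the strand of the gene. The *Cish* window (chr9:107296409-107296708, + strand) holds 2 matches, which begin 0 and 11 bases after the start. The window of the second listed *Bcl6* start (chr16:23981234-23981533, - strand) holds 3 matches, at 168, 122 and 88 bases before the start. The window of the first listed *Bcl6* start (chr16:23988803-23989102, - strand), which is not printed, holds 1 match, at 118 bases before the start.
Cish: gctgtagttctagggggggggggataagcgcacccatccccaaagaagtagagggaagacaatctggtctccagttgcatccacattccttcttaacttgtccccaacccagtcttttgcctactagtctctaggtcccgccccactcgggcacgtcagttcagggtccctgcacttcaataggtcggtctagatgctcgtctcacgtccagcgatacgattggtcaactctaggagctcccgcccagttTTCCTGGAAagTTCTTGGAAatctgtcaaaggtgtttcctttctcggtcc
Bcl6: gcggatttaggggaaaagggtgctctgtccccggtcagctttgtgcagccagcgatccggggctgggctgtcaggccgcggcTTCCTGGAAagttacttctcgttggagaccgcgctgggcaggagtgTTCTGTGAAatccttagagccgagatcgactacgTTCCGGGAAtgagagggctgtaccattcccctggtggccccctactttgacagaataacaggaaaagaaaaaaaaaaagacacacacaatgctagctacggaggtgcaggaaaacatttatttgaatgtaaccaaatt
Of 32851 promoter windows, 8.3% held at least 1 match, 0.457% at least 2 and 0.0335% at least 3. The printed windows were chosen for holding matches, and of the *Bcl6* starts the one with more was printed. These shares therefore test nothing about the printed windows. Among axis genes with a listed promoter, 5 of 17 held a match, against 9.55% of all genes. Windows of *Cux2*, *Hsd3b5* and *Mup7* held none. A match is a run of letters and was not tested as a binding site.

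Female-biased genes contained 1 lowered member, *Cux2* of the growth hormone axis, among 22 tested, and their median log2 FC was -0.99. At an unadjusted *P* value under 0.05, 7 were lower and 1 was higher. *Cyp2a4*, a steroid hydroxylase, measured 207, 471 and 354 CPM in WT and 27.5, 53 and 2.66 CPM in *Ahr* HKO (log2 FC -3.63, SE 0.93, adjusted *P* = 0.104). *Slc22a27*, an organic anion transporter, measured 3.85, 4.8 and 2.26 CPM in WT and 1.39, 0.694 and 0.203 CPM in *Ahr* HKO (log2 FC -2.22, SE 0.60, adjusted *P* = 0.114). *Cyp2b9* and *Cyp2b13*, a pair of steroid hydroxylases, had groups that did not overlap and log2 FC of -2.18 and -2.80 (adjusted *P* = 0.131 and 0.14). Without *Ahr* HKO liver 1, which had the highest *Cyp2b9* and *Cyp2b13* of its group, 3 members of the list passed as lower, 13 were lower at an unadjusted *P* value under 0.05 and the median was -1.59, and without WT liver 1, WT liver 2, *Ahr* HKO liver 2 or *Ahr* HKO liver 3 none did. *Cux2* alone passed without WT liver 3.

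**Figure D3:**
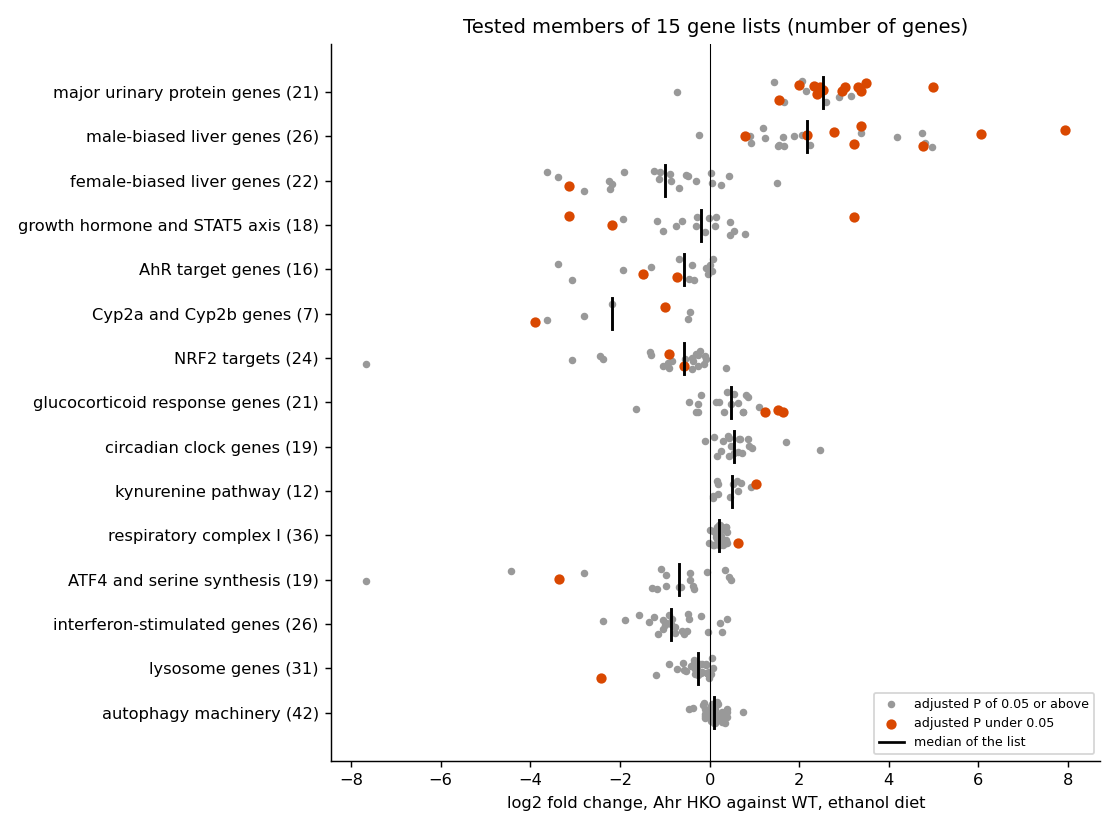
Points are the tested members of 15 gene lists by their log2 FC of *Ahr* HKO against WT on the ethanol diet, with genes of an adjusted *P* value under 0.05 in orange and the median of each list as a bar. The *Mup* and male-biased lists lie to the right with medians of 2.53 and 2.16, and the *Cyp2a* and *Cyp2b* list lies to the left with a median of -2.18.

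Transcripts of the targeted gene itself were 30.5, 20.8 and 23.4 CPM in WT, and the 3 *Ahr* HKO libraries had 41.8, 32.1 and 24.7 CPM. The groups overlapped (log2 FC 0.40, SE 0.21, adjusted *P* = 0.316). Counts over the whole gene (chr12:35497979-35534989) cannot show the loss of a floxed part, and other liver cells keep the gene, so these values do not check the genotype labels. Of the 11 tested genes of the receptor complex none passed in edgeR, with 2 higher at an unadjusted *P* value under 0.05, 2 higher in DESeq2 and none in limma on log2(FPKM + 1), the scale on which limma counts are given hereafter. The list median of 0.10 was -0.10 on that scale and 0.16 without WT liver 2 or WT liver 3, and 4 genes were higher at an unadjusted *P* value under 0.05 without WT liver 1. Those higher were the chaperones *Hsp90aa1*, at 106, 263 and 168 CPM in WT and 320.1, 551 and 417 CPM in *Ahr* HKO (log2 FC 1.26, SE 0.35, adjusted *P* = 0.121), and *Hsp90ab1* (log2 FC 0.68, adjusted *P* = 0.12). The partner *Arnt* had a log2 FC of -0.11 (adjusted *P* = 0.452). *Ahrr*, the AhR repressor, had at most 8 reads in any liver and was not tested.

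Of 16 tested AhR target genes 2 fell and none rose, and the median log2 FC was -0.57. At an unadjusted *P* value under 0.05, 8 were lower and none higher. *Cyp1a2*, the constitutive hepatic CYP1 enzyme, measured 1212, 1061 and 992 CPM in WT and 629, 684 and 658 CPM in *Ahr* HKO (log2 FC -0.73, SE 0.12, adjusted *P* = 0.0433), and every *Ahr* HKO liver lay below every WT liver. *Htatip2*, an oxidoreductase and tumor suppressor, measured 96.6, 57.1 and 58.3 CPM in WT and 29.6, 25.2 and 21 CPM in *Ahr* HKO (log2 FC -1.48, SE 0.23, adjusted *P* = 0.0422). WT liver 1 was the highest, and the groups did not overlap. *Cyp1a1*, the most inducible target, measured 1.36, 1.02 and 1.66 CPM in WT and 1.03, 1.23 and 1.67 CPM in *Ahr* HKO, and its groups overlapped (log2 FC -0.04, SE 0.30, adjusted *P* = 0.957). *Nqo1*, a quinone reductase, was at 26.6, 28.2 and 18.2 CPM and 11.2, 11.3 and 6.88 CPM (log2 FC -1.31, SE 0.24, adjusted *P* = 0.0633). The glutathione transferase *Gsta1* was at 77.3, 57.6 and 13.1 CPM and 5.12, 8.41 and 3.97 CPM (log2 FC -3.07, SE 0.64, adjusted *P* = 0.0718). Neither passed, although the groups did not overlap, as in 7 members of the list and 14.2% of all tested genes for *Ahr* HKO below WT. *Cyp1b1*, *Tiparp* and *Xdh* had log2 FC of 0.00, -0.08 and 0.07 with adjusted *P* values of 0.999, 0.908 and 0.797. *Cyp1a2* and *Htatip2* both passed without WT liver 3, and neither passed without any other liver, with adjusted *P* values of 0.0663 to 0.187. The list median was -0.36 without WT liver 2 or *Ahr* HKO liver 3, and 4 members passed as lower without WT liver 3. *Cyp1a2* also missed the threshold in the fit of all 12 libraries (adjusted *P* = 0.196).

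Promoters of *Cyp1a1* and *Htatip2* are shown as those of the inducible AhR target and of the called target with the larger decrease, with the AhR core GCGTG in capitals, written CACGC where it lies on the other strand. The *Cyp1a1* window (chr9:57697363-57697662, + strand) holds 1 match, 54 bases before the start. The window of the first listed *Htatip2* start (chr7:49758856-49759155, + strand) holds 2 matches, 119 and 108 bases before the start.
Cyp1a1: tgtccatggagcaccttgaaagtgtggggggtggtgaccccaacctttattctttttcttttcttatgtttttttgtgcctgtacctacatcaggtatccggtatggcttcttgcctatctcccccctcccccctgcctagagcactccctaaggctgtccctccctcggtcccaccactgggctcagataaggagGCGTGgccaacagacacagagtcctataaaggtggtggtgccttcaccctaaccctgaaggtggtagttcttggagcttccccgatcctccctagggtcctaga
Htatip2: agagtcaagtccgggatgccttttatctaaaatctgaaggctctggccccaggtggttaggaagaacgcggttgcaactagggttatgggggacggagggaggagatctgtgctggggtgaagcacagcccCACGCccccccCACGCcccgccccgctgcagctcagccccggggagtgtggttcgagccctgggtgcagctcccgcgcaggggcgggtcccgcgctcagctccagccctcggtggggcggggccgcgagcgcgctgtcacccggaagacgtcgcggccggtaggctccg
The *Cyp1a2* window held none. At least 1 core was present in 32.4% of all promoter windows and at least 2 in 11.1%. Of 13 target genes with a listed promoter 8 held a core, against 35.2% of all genes. Elements outside these windows were not searched.

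*Cyp2a* and *Cyp2b* genes, whose enzymes oxidize coumarin, nicotine and steroids, had 2 lowered members among 7 tested and a median log2 FC of -2.18. *Cyp2a22* measured 231, 164 and 111 CPM in WT and 21.9, 5.51 and 6.67 CPM in *Ahr* HKO (log2 FC -3.89, SE 0.59, adjusted *P* = 0.0399). *Cyp2a5*, the coumarin 7-hydroxylase, measured 3846, 3721 and 3562 CPM in WT and 1612, 2249 and 1727 CPM in *Ahr* HKO (log2 FC -0.99, SE 0.16, adjusted *P* = 0.0438). WT livers were all above all *Ahr* HKO livers for both genes, and *Ahr* HKO liver 1 had more *Cyp2a22* than livers 2 and 3. *Cyp2b10*, the classical target of the receptor CAR, measured 408, 46.8 and 94.4 CPM in WT and 172, 83.6 and 138 CPM in *Ahr* HKO with overlapping groups (log2 FC -0.47, adjusted *P* = 0.739). *Cyp2a5* and *Cyp2a4* lie in a cluster of near-identical genes on chromosome 7, and their promoters are shown to give the degree of likeness. Over 299 aligned bases 294 matched (98.3%).
Cyp2a5: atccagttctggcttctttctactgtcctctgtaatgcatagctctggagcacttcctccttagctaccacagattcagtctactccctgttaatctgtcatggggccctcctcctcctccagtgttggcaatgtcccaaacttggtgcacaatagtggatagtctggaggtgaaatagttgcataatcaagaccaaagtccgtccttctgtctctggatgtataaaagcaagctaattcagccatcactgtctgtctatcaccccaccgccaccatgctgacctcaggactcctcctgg
Cyp2a4: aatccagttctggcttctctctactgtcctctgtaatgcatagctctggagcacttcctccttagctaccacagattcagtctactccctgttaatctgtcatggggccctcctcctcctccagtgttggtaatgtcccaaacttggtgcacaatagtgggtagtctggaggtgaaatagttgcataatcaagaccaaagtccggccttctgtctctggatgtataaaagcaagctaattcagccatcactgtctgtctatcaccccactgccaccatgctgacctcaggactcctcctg
The windows lie at chr7:26835089-26835388 and chr7:26306942-26307241 on the + strand, hold no AhR core and therefore carry no capitals. Reads shared between such copies make their single values uncertain. *Cyp2a22* passed without WT liver 3 and without *Ahr* HKO liver 1 but lost its call without each of the other 4 livers, and *Cyp2a5* lost it in all 6 fits with a liver left out. The list median was -3.28 without *Ahr* HKO liver 1.

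Conjugating and antioxidant enzymes changed in both directions. *Gstm3*, a mu-class glutathione transferase, measured 567, 480.0 and 381 CPM in WT and 146, 151 and 151 CPM in *Ahr* HKO (log2 FC -1.67, SE 0.15, adjusted *P* = 0.0121), and the *Ahr* HKO livers were nearly equal. *Gstk1*, the mitochondrial kappa-class enzyme, measured 71.6, 73.9 and 74 CPM in WT and 131, 120.2 and 129 CPM in *Ahr* HKO (log2 FC 0.79, SE 0.09, adjusted *P* = 0.0198). Among 19 tested glutathione transferases these were the lowered and the raised gene. Of 24 tested NRF2 targets 2 fell and none rose, 16 were lower and 1 was higher at an unadjusted *P* value under 0.05, and the median log2 FC was -0.56. *Ephx1*, the microsomal epoxide hydrolase, measured 1027, 920.4 and 895 CPM in WT and 462, 587 and 473 CPM in *Ahr* HKO (log2 FC -0.90, SE 0.14, adjusted *P* = 0.0399). *Ugdh*, which makes UDP-glucuronic acid, measured 216, 205 and 222 CPM in WT and 136, 150.3 and 145 CPM in *Ahr* HKO (log2 FC -0.57, SE 0.09, adjusted *P* = 0.0438). *Srxn1*, a sulfiredoxin, had a log2 FC of -1.04 and *Nfe2l2*, which encodes NRF2, of -0.39 (adjusted *P* = 0.0909 and 0.171). *Slc7a11*, the cystine transporter, was at 0.566, 0.461 and 0.239 CPM in WT with no read in any *Ahr* HKO liver, at least 8.09-fold lower when 3 counts per library are taken as the floor, and did not pass (adjusted *P* = 0.0627). In all, 3 glutathione transferases passed as higher without *Ahr* HKO liver 1, and 2 passed as lower without WT liver 3. *Gstm3* passed without any single liver except *Ahr* HKO liver 3. *Gstk1* was lost without WT liver 1, WT liver 2, *Ahr* HKO liver 2 or *Ahr* HKO liver 3, and *Ephx1* and *Ugdh* were lost in all 6 fits with a liver left out.

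Glucocorticoid response genes rose in 3 of 21 tested and fell in none, with a median log2 FC of 0.47. *Zbtb16*, a transcription factor induced by glucocorticoids, measured 27.6, 35.6 and 41.6 CPM in WT and 106, 98.8 and 95.9 CPM in *Ahr* HKO (log2 FC 1.52, SE 0.16, adjusted *P* = 0.0179). *Fkbp5*, a co-chaperone of the glucocorticoid receptor, measured 75, 96.2 and 108 CPM in WT and 233, 244 and 178 CPM in *Ahr* HKO (log2 FC 1.23, SE 0.18, adjusted *P* = 0.0383). *Tat*, the tyrosine aminotransferase, measured 1287, 762 and 1300.0 CPM in WT and 2929, 4235 and 3158 CPM in *Ahr* HKO (log2 FC 1.63, SE 0.25, adjusted *P* = 0.0399). Groups did not overlap for these genes, and all 3 were also raised in *Ahr* HKO on the control diet (log2 FC 2.78, 2.26 and 1.72). *Lcn2*, an acute phase lipocalin on the same list, had a log2 FC of -1.64 (adjusted *P* = 0.096). *Pck1*, the gluconeogenic PEP carboxykinase, was at 2948, 3010.0 and 3787 CPM and 4779, 5991 and 6256 CPM (log2 FC 0.81, SE 0.17, adjusted *P* = 0.0744). None of the 3 calls held without WT liver 2, *Ahr* HKO liver 2 or *Ahr* HKO liver 3, *Zbtb16* alone held without WT liver 1 or *Ahr* HKO liver 1, and *Zbtb16* and *Fkbp5* held without WT liver 3. The list median was 0.19 without *Ahr* HKO liver 1. Of 19 clock genes none passed in edgeR or limma, 6 were higher in DESeq2, and 8 were higher at an unadjusted *P* value under 0.05 with a median log2 FC of 0.54. Without *Ahr* HKO liver 1, 1 passed. *Cry2*, a clock repressor, was at 32.4, 30.8 and 27.7 CPM in WT and 39.7, 63.2 and 71.9 CPM in *Ahr* HKO (log2 FC 0.95, adjusted *P* = 0.086). Times of tissue collection are not given in the sources used here.

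Glucose metabolism contributed 3 raised and 1 lowered gene of 27 tested. Those raised were isoforms of the bifunctional enzyme that makes and degrades fructose 2,6-bisphosphate, a regulator of glycolysis. *Pfkfb3* measured 12.9, 23 and 21 CPM in WT and 95.4, 112 and 55.8 CPM in *Ahr* HKO (log2 FC 2.21, SE 0.32, adjusted *P* = 0.0381). *Pfkfb1*, the liver isoform, measured 13.2, 13.9 and 21.8 CPM in WT and 40.6, 45 and 57.6 CPM in *Ahr* HKO (log2 FC 1.55, SE 0.23, adjusted *P* = 0.0383). *Pfkfb2* measured 31.5, 28.8 and 31.9 CPM in WT and 52.1, 87.4 and 62.2 CPM in *Ahr* HKO (log2 FC 1.13, SE 0.19, adjusted *P* = 0.0491). In each isoform the *Ahr* HKO livers exceeded the WT livers. *Ugp2*, which makes UDP-glucose for glycogen, fell from 721, 703 and 705 CPM to 329, 384 and 274 CPM (log2 FC -1.11, SE 0.14, adjusted *P* = 0.0294). *Pfkfb3* passed in none of the fits with a liver left out, *Pfkfb2* only without *Ahr* HKO liver 1, *Pfkfb1* without WT liver 3 or *Ahr* HKO liver 1, and *Ugp2* without WT liver 3 or *Ahr* HKO liver 2. *Pklr*, the liver pyruvate kinase, and *Acaca*, the acetyl-CoA carboxylase, had log2 FC of -0.98 and -0.57 (adjusted *P* = 0.0899 and 0.124). No lipogenic gene of 17 passed in edgeR or limma, 4 were lower and 1 was higher at an unadjusted *P* value under 0.05, and 4 were lower in DESeq2. Of the lipogenic genes 1 passed as lower without *Ahr* HKO liver 1, without WT liver 2, 2 were lower at an unadjusted *P* value under 0.05, and without *Ahr* HKO liver 2, 5 were higher. *Plin5*, a lipid droplet coat protein of oxidative tissues, rose from 57.9, 49.5 and 53.6 CPM to 99.6, 85.5 and 82.5 CPM (log2 FC 0.73, SE 0.11, adjusted *P* = 0.0381) and passed in none of the fits with a liver left out. Of the alcohol-oxidizing enzymes none of 13 passed in edgeR or limma, 2 were higher at an unadjusted *P* value under 0.05 (1 in each fit with a liver left out, except that without *Ahr* HKO liver 2), and 1 was higher in DESeq2. Of all tested genes 9.75% were higher at that unadjusted threshold. *Cyp2e1*, the ethanol-inducible oxidase, was at 4126, 4292 and 4177 CPM in WT and 7014, 6252 and 6178 CPM in *Ahr* HKO without overlap (log2 FC 0.63, SE 0.12, adjusted *P* = 0.0642), but its sign turned on quantile-normalized FPKM (log2 difference -0.09).

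The genes that the study followed as RNA readouts did not pass in the edgeR test of these libraries. *Ppp2r2d*, a regulatory subunit of protein phosphatase 2A (PP2A), measured 29.7, 28.5 and 26.5 CPM in WT and 21.1, 23.3 and 22.7 CPM in *Ahr* HKO (log2 FC -0.33, SE 0.09, adjusted *P* = 0.121). Every *Ahr* HKO liver lay below every WT liver, and the gene passed in DESeq2 (adjusted *P* = 0.0355) and in limma on log2(FPKM + 1) (adjusted *P* = 0.042) but not after quantile normalization (adjusted *P* = 0.102). On log2(FPKM + 1) the median of all genes was -0.13, and 71 genes were called higher and 311 lower. *Ppp2r2d* passed in none of the edgeR fits with a liver left out (adjusted *P* = 0.119 to 0.326). *Ppp2r5c* and *Ppp2r5d*, other regulatory subunits, had log2 FC of -0.13 and 0.19 (adjusted *P* = 0.417 and 0.437). No PP2A subunit of 14 passed in edgeR, with 1 higher and 1 lower at an unadjusted *P* value under 0.05, 1 lower in DESeq2 and 1 lower in limma. Without *Ahr* HKO liver 1, 3 were lower at that unadjusted threshold, without WT liver 3, 2 were higher, and without WT liver 1, *Ahr* HKO liver 2 or *Ahr* HKO liver 3 none was higher. *Prkaa1* and *Prkaa2*, the catalytic subunits of AMPK, had log2 FC of -0.04 and -0.36 (adjusted *P* = 0.874 and 0.198). None of 12 AMPK genes passed in edgeR, DESeq2 or limma, and 2 were lower at an unadjusted *P* value under 0.05, but none without WT liver 2, WT liver 3 or *Ahr* HKO liver 3 and 1 without *Ahr* HKO liver 2. *Sqstm1*, the autophagy receptor p62, measured 885, 559 and 532 CPM in WT and 495, 465 and 479.5 CPM in *Ahr* HKO (log2 FC -0.45, SE 0.20, adjusted *P* = 0.24), with WT liver 1 far above the rest. *Map1lc3b*, which encodes LC3B, had overlapping groups (log2 FC 0.18, adjusted *P* = 0.38). Among 42 autophagy genes none passed in edgeR or limma, 5 were higher at an unadjusted *P* value under 0.05 and 3 in DESeq2, and the median of 0.09 was -0.09 on log2(FPKM + 1). Of all tested genes 9.75% were higher and 11.3% lower at that unadjusted threshold, the background for the PP2A, AMPK and autophagy counts. In DESeq2, 715 of 14017 genes were called higher and 797 lower. Without *Ahr* HKO liver 1, 8 autophagy genes were higher at that unadjusted threshold, and without *Ahr* HKO liver 2, 3 were.

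Tryptophan catabolism through kynurenine contained 1 raised gene among 12 tested, with a median log2 FC of 0.49. That gene was *Acmsd*, which diverts the pathway from NAD synthesis, at 6.99, 7.81 and 7.86 CPM in WT and 15.1, 13.1 and 18.1 CPM in *Ahr* HKO (log2 FC 1.03, SE 0.15, adjusted *P* = 0.0381). It passed in none of the fits with a liver left out. *Tdo2*, the hepatic enzyme that opens the pathway, measured 782, 818 and 747 CPM in WT and 1047, 1491 and 1245 CPM in *Ahr* HKO, without overlap (log2 FC 0.69, SE 0.15, adjusted *P* = 0.0838). *Ido2* had overlapping groups (log2 FC 0.52, adjusted *P* = 0.206), and *Ido1* had no read in any of the 6 livers. *Aadat*, which makes kynurenic acid, had a log2 FC of 0.92 (adjusted *P* = 0.0607). No member was lower and 6 were higher at an unadjusted *P* value under 0.05. Of 23 sphingolipid enzymes none passed in edgeR, 8 were lower at an unadjusted *P* value under 0.05, and 2 were lower in DESeq2 and in limma. *Sgms2*, a sphingomyelin synthase, and *Asah1*, acid ceramidase, had log2 FC of -0.47 and -0.58 (adjusted *P* = 0.094 and 0.0959). Without WT liver 2 the number lower at an unadjusted *P* value under 0.05 was 3, without *Ahr* HKO liver 3 it was 4, and without WT liver 1 or *Ahr* HKO liver 2 it was 5.

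Respiratory chain genes lay slightly higher in *Ahr* HKO. Of 36 complex I subunits 1 rose, *Ndufb3*, from 38, 37.8 and 38.5 CPM to 54.2, 58.3 and 63.8 CPM (log2 FC 0.63, SE 0.09, adjusted *P* = 0.0393), and it passed again only without *Ahr* HKO liver 1. At an unadjusted *P* value under 0.05, 17 complex I subunits were higher and none lower, and the list median was 0.21. Subunits of complexes II to V gave none passing of 41 in edgeR or limma, 10 higher in DESeq2, and 18 higher and 1 lower at an unadjusted *P* value under 0.05, also with a median of 0.21. On log2(FPKM + 1), where the median of all genes was -0.13, these medians were -0.00437 and -0.00343. The numbers higher at that unadjusted threshold without *Ahr* HKO liver 3 were 10 for complex I and 5 for complexes II to V, and for the latter 9 without WT liver 2, WT liver 3 or *Ahr* HKO liver 2. *Dnm1l*, the mitochondrial fission GTPase, measured 26.9, 25.1 and 27.1 CPM in WT and 36.8, 36.9 and 35.2 CPM in *Ahr* HKO (log2 FC 0.46, SE 0.08, adjusted *P* = 0.053). *Ppargc1b*, a coactivator of mitochondrial genes, had a log2 FC of 1.00 (adjusted *P* = 0.0994). Of 78 mitochondrial ribosome genes none passed in edgeR or limma, 14 were higher at an unadjusted *P* value under 0.05 and 5 in DESeq2, and the median of 0.14 was -0.07 on log2(FPKM + 1). Among all tested genes 9.75% were higher at that unadjusted threshold, and DESeq2 called 715 of 14017 higher. Without *Ahr* HKO liver 2 or 3, 8 mitochondrial ribosome genes were higher at that unadjusted threshold, and without *Ahr* HKO liver 1, 1 of them passed.

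Several genes had no read in any liver of a genotype. *Ces2d-ps* (chr8:104867424-104874083), named as a pseudogene of a carboxylesterase, was at 26.2, 23.4 and 17.7 CPM in WT with no read in *Ahr* HKO, at least 430-fold lower against a floor of 3 counts per library (adjusted *P* = 0.0023). It held without any single liver, but on the control diet it was 18.5, 13.2 and 0 CPM in WT and 7.37, 0 and 0 CPM in *Ahr* HKO, so that livers of both genotypes had none. *Gm10639* (chr9:78289928-78305525) was at 20.6, 15.1 and 5.75 CPM in WT with no read in *Ahr* HKO, at least 265-fold lower (adjusted *P* = 0.0265), and was lost without WT liver 1, WT liver 2, *Ahr* HKO liver 2 or *Ahr* HKO liver 3. *Obp2a*, an odorant-binding lipocalin, had no read in WT, while the *Ahr* HKO livers had 1.86, 1.48 and 3.38 CPM and were at least 44.2-fold higher (adjusted *P* = 0.0257), and passed only without WT liver 3 or *Ahr* HKO liver 1. *Cfd*, the complement protease adipsin, and *Gm12718* had none in WT either, and were at least 25.5-fold and 15.6-fold higher (adjusted *P* = 0.0383 and 0.0381). Each of these 2 passed in 1 of the 6 fits with a liver left out. *Cfd* is also an adipocyte marker, and the other markers of that list, *Adipoq*, *Plin1*, *Lep* and *Retn*, had no read in any of the 6 livers. *Gm4956* rose from 0.321, 1.03 and 0.573 CPM to 14.8, 14.8 and 22.3 CPM (log2 FC 4.72, SE 0.41, adjusted *P* = 0.0108) and passed without any single liver except *Ahr* HKO liver 3.

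The other large decreases came from genes of varied roles. *Ly6d*, a GPI-anchored surface protein, measured 37.7, 21.7 and 6.85 CPM in WT and 1.62, 1.6 and 0.767 CPM in *Ahr* HKO (log2 FC -4.03, SE 0.64, adjusted *P* = 0.0433). *Psat1*, an aminotransferase of serine synthesis, measured 5.08, 2.24 and 4.65 CPM in WT and 0.581, 0.309 and 0.248 CPM in *Ahr* HKO (log2 FC -3.36, SE 0.44, adjusted *P* = 0.033). *Lepr*, the leptin receptor, measured 41.8, 52.9 and 53.8 CPM in WT and 4.52, 13.3 and 5.84 CPM in *Ahr* HKO (log2 FC -2.64, SE 0.40, adjusted *P* = 0.0399). For these 3 genes the WT livers exceeded the *Ahr* HKO livers, and *Ly6d* varied most among the WT livers. Their groups did not overlap, which held for all 155 called genes. *Cd63*, a tetraspanin of late endosomes and lysosomes, measured 27.8, 22.1 and 24.5 CPM in WT and 3.37, 6.67 and 3.83 CPM in *Ahr* HKO (log2 FC -2.41, SE 0.27, adjusted *P* = 0.02). *Arhgef2*, a microtubule-associated exchange factor for RhoA, measured 20.9, 13.9 and 12.7 CPM in WT and 3.78, 3.09 and 3.31 CPM in *Ahr* HKO (log2 FC -2.22, SE 0.21, adjusted *P* = 0.013). *Ccnd1*, cyclin D1 of the G1 phase, measured 59.7, 64.3 and 60.7 CPM in WT and 16.4, 21.8 and 14.4 CPM in *Ahr* HKO (log2 FC -1.81, SE 0.16, adjusted *P* = 0.012). In none of these 3 did the groups overlap. *Gm19619* and *Crym*, a thyroid hormone-binding protein, fell with log2 FC of -2.30 and -2.12. *Gadd45b*, a stress-induced growth arrest gene, fell with a log2 FC of -1.73 (adjusted *P* = 0.0485). In the opposite direction *Tk1*, the thymidine kinase of S phase, rose from 13.5, 12.4 and 12 CPM to 27.3, 35.8 and 33.1 CPM (log2 FC 1.35, SE 0.13, adjusted *P* = 0.013). *Ccnd1* passed without any single liver except *Ahr* HKO liver 3, *Arhgef2* was lost without *Ahr* HKO liver 2 or 3, and *Lepr* passed only without *Ahr* HKO liver 2. *Psat1* passed without WT liver 2, WT liver 3 or *Ahr* HKO liver 1, *Cd63* and *Gm19619* without WT liver 3, *Ahr* HKO liver 1 or *Ahr* HKO liver 2, *Ly6d* and *Crym* only without WT liver 3, and *Gadd45b* only without *Ahr* HKO liver 2. *Tk1* was lost without WT liver 2 or *Ahr* HKO liver 3. *Psat1* belongs to a list of 19 ATF4 and serine synthesis genes in which it was the lowered member, 8 were lower and 1 higher at an unadjusted *P* value under 0.05, and the median was -0.68, with 12 lower and a median of -0.96 without WT liver 2. *Fgf21*, a hepatokine on that list, varied widely at 12, 4.44 and 57.4 CPM in WT and 1.84, 0.88 and 0.631 CPM in *Ahr* HKO (log2 FC -4.42, SE 0.99, adjusted *P* = 0.0838).

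*Ctse*, *Hist1h2bl*, *Hist1h2bk*, *Bcl2l1* and *Fam107a* were raised on both diets. *Ctse* (chr1:131638314-131675507), an aspartic protease, measured 0.34, 0.0954 and 0.0637 CPM in WT and 38.8, 34.5 and 26.7 CPM in *Ahr* HKO (log2 FC 7.69, SE 0.46, adjusted *P* = 0.0023), and on the control diet 0.0873, 0 and 0.123 CPM and 17.9, 12.5 and 22 CPM (log2 FC 7.98, adjusted *P* = 0.000603). Its interaction of genotype and diet did not pass (log2 -0.29, adjusted *P* = 0.844). *Hist1h2bl*, *Hist1h2bk* and *Hist1h2bq*, replication-type histone H2B genes, rose with log2 FC of 4.02, 2.23 and 2.05, and were the raised members of 41 tested histone genes, of which none fell. *Hist1h2bl* measured 0.17, 0.175 and 0.111 CPM in WT and 2.47, 2.72 and 2.28 CPM in *Ahr* HKO (adjusted *P* = 0.0067). H2B copies are near-identical, most of their transcripts lack a poly(A) tail, and these libraries were made from poly(A) RNA. *Bcl2l1*, which encodes the survival protein Bcl-xL, measured 27.7, 29.1 and 30.9 CPM in WT and 64, 78.5 and 72.6 CPM in *Ahr* HKO (log2 FC 1.3, SE 0.11, adjusted *P* = 0.0108), and its log2 FC on the control diet was 1.56. *Fam107a*, a glucocorticoid-responsive actin regulator, measured 0.302, 0.27 and 0.509 CPM in WT and 2.42, 9 and 6.13 CPM in *Ahr* HKO (log2 FC 4.01, SE 0.55, adjusted *P* = 0.0357). *Ctse* and *Hist1h2bl* passed without any single liver, the other 2 histone genes and *Bcl2l1* in all but the fit without *Ahr* HKO liver 3, and *Fam107a* only without WT liver 3 or *Ahr* HKO liver 1.

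Markers of Kupffer cells, leukocytes and stellate cells summed to less in every *Ahr* HKO liver than in every WT liver, although no single marker passed in edgeR. The 10 Kupffer cell markers summed to 446, 996 and 413 CPM in WT and to 260, 289 and 322 CPM in *Ahr* HKO. The 12 leukocyte markers summed to 85.8, 151 and 59.2 CPM in WT and to 36.4, 47.8 and 41.3 CPM in *Ahr* HKO. WT liver 2 stood above all others in both sums, and in the endothelial sum (618 CPM, against 280 to 319 CPM in the other 5 livers). No Kupffer cell marker of 10 and no leukocyte marker of 11 tested passed in edgeR, but 9 and 8 were lower at an unadjusted *P* value under 0.05, 8 and 7 in DESeq2, and 0 and 1 in limma, with medians of -0.96 and -1.30. Without WT liver 2 these medians were -0.57 and -0.94, and without WT liver 3, 1 Kupffer cell marker passed. *Marco*, a scavenger receptor of Kupffer cells, measured 32.4, 45 and 12.7 CPM in WT and 3.49, 4.09 and 7.49 CPM in *Ahr* HKO (log2 FC -2.59, SE 0.50, adjusted *P* = 0.0641). *Clec4f*, which defines Kupffer cells, overlapped between the groups (log2 FC -0.77, adjusted *P* = 0.253). Stellate cell and matrix markers summed to 384 to 434 CPM in WT and to 280 to 334 CPM in *Ahr* HKO, and none of 10 passed in edgeR, with 6 lower at an unadjusted *P* value under 0.05, 5 lower in DESeq2 and 2 lower in limma. Stellate cell markers had 2 members that passed as lower without *Ahr* HKO liver 2. *Col3a1*, a fibrillar collagen, was at 34.6, 42.5 and 32.2 CPM and 14.4, 23.2 and 13.6 CPM (log2 FC -1.09, SE 0.23, adjusted *P* = 0.0757). In whole liver fewer cells of a type and less RNA per cell cannot be told apart. Hepatocyte markers summed to 81443 to 110817 CPM in WT and to 101516 to 109360 CPM in *Ahr* HKO, and none of 6 passed in edgeR or limma, with 5 higher at an unadjusted *P* value under 0.05 and in DESeq2.

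**Figure D4:**
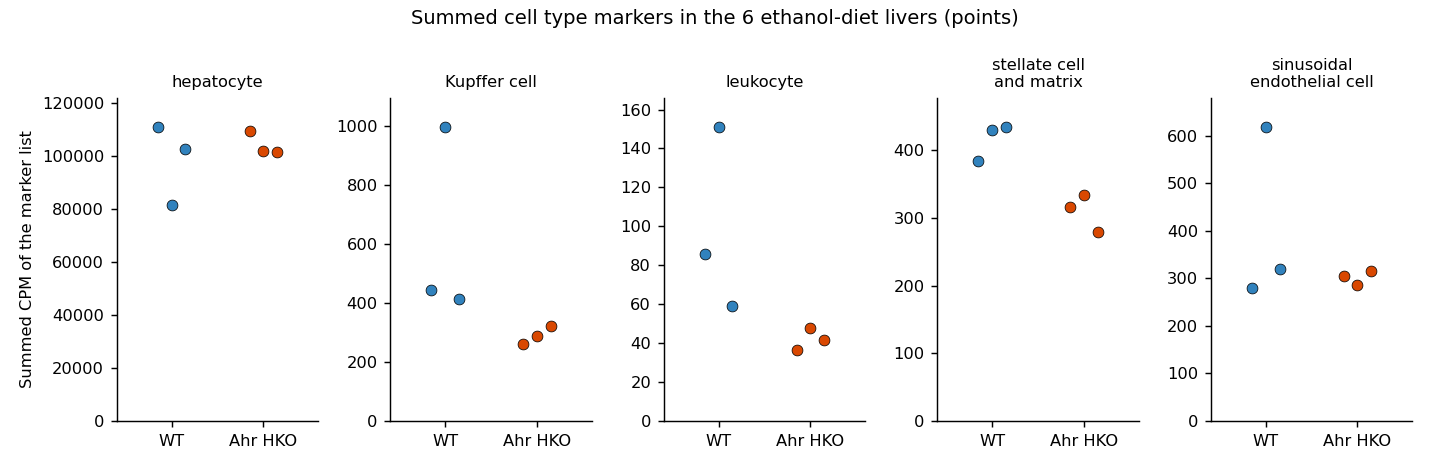
Summed CPM of 5 cell type marker lists in each ethanol-diet liver, with WT on the left and *Ahr* HKO on the right of each panel and an axis from 0. WT liver 2 is the highest point in the Kupffer cell, leukocyte and endothelial panels, at 996, 151 and 618 CPM.

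Interferon-stimulated genes had a negative median as well. None of 26 passed in edgeR, 14 were lower and 1 was higher at an unadjusted *P* value under 0.05, 8 were lower in DESeq2 and 1 in limma, and the median log2 FC was -0.85. *Gbp3*, a guanylate-binding protein, measured 9.04, 14.3 and 5.49 CPM in WT and 3.71, 3.01 and 2.98 CPM in *Ahr* HKO (log2 FC -1.58, SE 0.34, adjusted *P* = 0.0779). *Ifi47* had a log2 FC of -0.84 (adjusted *P* = 0.0697). Without WT liver 2 the number lower at an unadjusted *P* value under 0.05 was 9 with a median of -0.55, without *Ahr* HKO liver 3 it was also 9, and without WT liver 3, the WT liver with the least *Gbp3*, 9 passed as lower at an adjusted *P* value under 0.05. Lysosome genes had 1 lowered member of 31, *Cd63*, with 11 lower at an unadjusted *P* value under 0.05 and a median of -0.27. The number lower was 6 with a median of -0.14 without WT liver 1, and 5 without *Ahr* HKO liver 2 or *Ahr* HKO liver 3, and none passed without WT liver 1, WT liver 2 or *Ahr* HKO liver 3. *Hexa*, a subunit of hexosaminidase, had a log2 FC of -0.59 (adjusted *P* = 0.0774). The part of the Kupffer cell and leukocyte sums in these lists, and in the sphingolipid list, was not tested. Periportal genes had 1 raised member of 17, *Cyp2f2*, at 971, 1001 and 980.1 CPM in WT and 1599, 1696 and 1973 CPM in *Ahr* HKO (log2 FC 0.84, SE 0.12, adjusted *P* = 0.0383), with 11 higher and 1 lower at an unadjusted *P* value under 0.05 and a median of 0.48. *Saa4*, a constitutive serum amyloid A, rose from 278, 294 and 272 CPM to 571, 719 and 693 CPM (log2 FC 1.23, SE 0.13, adjusted *P* = 0.0173) as the single called member of 25 acute phase genes, and *Alas2*, an erythroid heme synthesis enzyme and erythroid marker, rose from 28.2, 37.7 and 35.5 CPM to 81.2, 107 and 129 CPM (log2 FC 1.65, SE 0.20, adjusted *P* = 0.0257). The erythroid markers as a list summed to 207 to 437 CPM in WT and to 367 to 493 CPM in *Ahr* HKO, with overlap. *Cyp2f2*, *Saa4* and *Alas2* lost their calls without WT liver 1, WT liver 2, *Ahr* HKO liver 2 or *Ahr* HKO liver 3, and *Cyp2f2* also without WT liver 3.

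On the control diet the genotypes were compared in other mice. There, 15.4% of the tested genes were higher and 14.2% lower in *Ahr* HKO at an adjusted *P* value under 0.05. Of the 100 genes raised on ethanol, 30 were also raised on the control diet, 18 were lowered there and 52 did not pass. Of the 55 lowered genes, 8 were also lowered on the control diet, 12 were raised and 35 did not pass. Genes called in the same direction on both diets numbered 38, of the 155 on ethanol and the 4161 on the control diet. The interaction of genotype and diet passed for 22.3% of all tested genes. It passed for 66 of the 100 raised genes, of which 55 had the opposite sign on the control diet, and for 32 of the 55 lowered genes, of which 27 had the opposite sign. These genes were chosen on the ethanol values that also enter the interaction, so its counts among them describe them and test nothing.

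**Figure D5:**
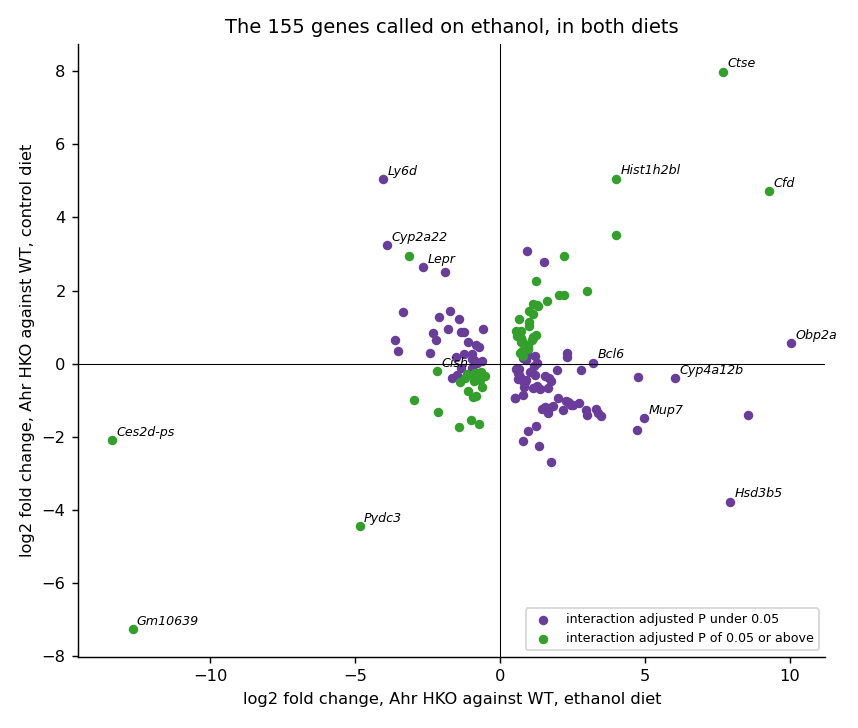
Points are the 155 called genes, with the log2 FC of *Ahr* HKO against WT on the ethanol diet on the x axis and on the control diet on the y axis, colored by whether the interaction of genotype and diet passed. *Hsd3b5* and *Mup7* lie at lower right, *Ly6d*, *Cyp2a22* and *Lepr* at upper left, and *Ctse* at upper right, with a log2 FC of 7.69 on ethanol and 7.98 on the control diet.

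Several male-biased genes had opposite directions on the diets. *Hsd3b5* measured 256, 241 and 252 CPM in WT and 9.15, 27 and 18.4 CPM in *Ahr* HKO on the control diet (log2 FC -3.78, adjusted *P* = 0.00112), against a log2 FC of 7.94 on ethanol (interaction adjusted *P* = 0.000314). *Cyp4a12b* measured 119, 131 and 70.4 CPM in WT and 116, 70.9 and 55 CPM in *Ahr* HKO there, with overlapping groups (adjusted *P* = 0.379). For *Cyp4a12b* the WT ethanol livers were below all livers of the other 3 groups. The control-diet log2 FC were -1.28 for *Susd4* and -2.25 for *Tk1* (interaction adjusted *P* = 0.000167 and 7.76e-05). Of the 26 male-biased genes 10 were lowered and 1 was raised on the control diet, and the interaction passed for 22. In the lowered direction *Ly6d* measured 0.742, 1.98 and 1.25 CPM in WT and 76.9, 35.3 and 21.3 CPM in *Ahr* HKO on the control diet (log2 FC 5.05). *Cyp2a22* measured 0.175, 0.411 and 0.47 CPM in WT and 2.47, 2.7 and 4.96 CPM in *Ahr* HKO (log2 FC 3.25), and *Lepr* 3.43, 3.41 and 2.39 CPM in WT and 10.7, 9.57 and 37 CPM in *Ahr* HKO (log2 FC 2.64). All 3 were raised in *Ahr* HKO on the control diet and lowered in it on ethanol. The control-diet log2 FC of *Ppp2r2d* was 0.45 (adjusted *P* = 0.0304) with an interaction of -0.78 (adjusted *P* = 0.00499), and *Ahr* reads were higher in the libraries labelled *Ahr* HKO there (log2 FC 1.63, adjusted *P* = 0.00164).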

How the data were processed

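Poly(A) RNA of 12 mouse livers was sequenced with a stranded, paired-end protocol, and the 6 livers of the ethanol diet were compared by genotype. The submitters' processing notes name FastQC 0.11.7, Trimmomatic 0.38, HISAT2 2.1.0, Bowtie2 2.3.4.1, StringTie 1.3.4d and the build mm10. The authors deposited, for each gene and library, the read count, the FPKM and the TPM. FPKM as deposited by the authors are scaled by gene length and library total. TPM were deposited and not used in tests. Assignment of reads shared by near-identical genes is not given in the sources used here. The study worked on log-transformed, quantile-normalized FPKM.

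Read counts were tested with edgeR 4.0.16 in R 4.3.3 (quasi-likelihood F-test, TMM scaling within the 6 libraries of a comparison, Benjamini-Hochberg adjustment, two-sided), after its expression filter kept 14038 of 24532 genes. The interaction was fitted to all 12 libraries. SE are those implied by the test, the absolute log2 FC divided by the square root of the quasi-likelihood F statistic. CPM are counts over library totals scaled by TMM across all 12. A floor of 3 counts per library, 0.0425 to 0.0676 CPM, bounds folds of genes without a read in a genotype and covers counting error only, since reads carry no molecular identifiers. Library depth is given with the results. Alternatives were DESeq2 1.42.0, upper-quartile scaling, no filter, a minimum count of 10, all 12 libraries in 1 fit, limma 3.58.1 on log2(FPKM + 1), log2(FPKM + 0.1) and quantile-normalized log2(FPKM + 1), each liver left out, and a block for the replicate number. Principal components were taken from quantile-normalized log2(FPKM + 1) of 13345 genes, centered. Of the count tests, only the edgeR comparison of the ethanol-diet libraries was also run on simulated counts. These were drawn independently for each gene, so they do not measure how calls depend on single livers.

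Genes were named by rule. These were *Ahr*, *Cyp1a1*, *Cyp1a2* and the study's RNA readouts, the 12 largest increases and 12 largest decreases without overlap of groups at an adjusted *P* under 0.05 and a mean count of at least 50, at most 8 called members per gene list in order of *P* or otherwise up to 3 of lowest *P*, members that define a list, and the 10 genes of lowest *P* for the interaction and for the ethanol comparison. *Gm12718*, *Gsta1*, *Elovl3*, *Mup20*, *Socs2*, *Cyp2b9* and *Cyp2b13* were chosen after their values were seen. The comparison, the rule and the gene lists were chosen with earlier results of these data known. Gene positions and promoters are those of RefSeq for GRCm38.p6, matched by Entrez identifier for 24462 genes, with 23 tested genes unmatched. No column of another series was present in the table.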

Additional observations from a re-analysis of the deposited data

Results flagged for a closer look

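Of 191 genes named by rule, 93 had a difference between *Ahr* HKO and WT that was not the same on both diets, by edgeR's quasi-likelihood test of the interaction over all 12 livers with Benjamini-Hochberg adjustment (adjusted *P* = 6.38e-05 to 0.05). Values are the log2 FC on ethanol minus the log2 FC on the control diet, and each diet had 3 livers per genotype. Of all tested genes 22.3% passed this test. Of the 93, 38 were called on ethanol and 55 were not. Names follow the rule stated with the processing and not the interaction alone, so the number of names is no measure of how common such genes are.

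Male-biased genes raised on ethanol had positive values, which were 11.72 for *Hsd3b5*, 6.45 for *Cyp4a12b*, 5.13 for *Cyp4a12a*, 3.44 for *Susd4*, 3.20 for *Bcl6*, 2.96 for *C6* and 1.28 for *Ugt2b1*. In the *Mup* family, whose members share reads, the values were 6.47 for *Mup7*, 4.92 for *Mup12*, 4.73 for *Mup1*, 4.55 for *Mup14*, 3.65 for *Mup8*, 3.6 for *Mup9*, 3.38 for *Mup19* and 2.92 for *Mup10*. Other raised genes had values of 9.43 for *Obp2a*, which had no read in the WT ethanol livers so that its value is no size of a change, 6.56 for *Gm4956*, 3.6 for *Tk1*, 2.33 for *Alas2*, 1.89 for *Pfkfb1*, 1.67 for the chloride channel gene *Clcn2*, 1.49 for *Cyp2f2*, 1.27 for *Acmsd*, 0.90 for *Ndufb3* and 0.65 for *Gstk1*. *Zbtb16*, raised on both diets, had a value of -1.26.

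Genes lowered on ethanol had negative values. In xenobiotic metabolism these were -7.12 for *Cyp2a22*, -1.52 for *Ugdh*, -1.28 for *Gstm3* and -1.16 for *Htatip2*. In the other roles they were -9.08 for *Ly6d*, -5.28 for *Lepr*, -4.78 for *Psat1*, -3.18 for *Gadd45b*, -3.14 for *Gm19619*, -2.87 for *Arhgef2*, -2.75 for *Ccnd1* and -2.70 for *Cd63*.

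Among genes not called on ethanol and named for the interaction, values were 2.93 for *Adrb3*, an adrenergic receptor gene, and 2.50 for *BC024386*. On the negative side they were -5.08 for *Tubb6*, a tubulin gene, -4.37 for *Srxn1*, -3.24 for *Plscr1*, a phospholipid scramblase gene, -2.47 for the nucleolar *Nop58*, and -1.77 for *Lrrc59*.

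The other genes not called on ethanol were named from the gene lists. In the receptor and PP2A group the values were -1.23 for *Ahr*, -0.78 for *Ppp2r2d*, -0.37 for *Ppp2r5c* and 0.49 for *Ppp2r5d*. Autophagy, lysosome and AMPK genes had -0.93 for *Sqstm1*, 1.68 for *Wipi1*, 0.74 for *Atg9a*, -0.68 for *Hexa* and -1.01 for *Prkab2*. In tryptophan catabolism *Ido2* had 1.36 and *Aadat* 2.04. Sex-biased genes and drug-metabolizing enzymes had -13.58 for *Cyp2a4*, which had no read in the WT control livers so that its value is no size of a change, -4.98 for *Slc22a27*, -1.61 for *Cyp2c38*, 1.35 for *Cyp2d13*, 2.24 for *Cyp2d9*, 2.27 for *Cyp7b1*, 2.33 for *Sult2a8* and 1.72 for *Sult1b1*. The alcohol-oxidizing enzymes had 1.20 for *Cyp2e1*, 0.64 for *Aldh9a1* and 0.85 for *Cat*. Clock genes had 1.3 for *Cry2*, -0.94 for *Nfil3* and 2.41 for *Bhlhe41*. Lipid genes had -1.48 for *Cd36*, 1.35 for *Stard4*, 1.70 for *Insig1*, 1.01 for *Sgms2*, -1.92 for *Sptlc2* and 0.78 for *Pcyt2*. Mitochondrial genes and their coactivators had 0.50 for *Ndufs7*, 0.52 for *Ndufb6*, 0.53 for *Cox7b*, 0.44 for *Ndufaf1*, 0.47 for *Mrpl38*, 2.61 for *Ppargc1b* and 0.93 for *Ppargc1a*. Stress and secreted proteins had -4.55 for *Fgf21*, -3.63 for *Atf3*, -4.74 for *Lcn2*, 2.12 for *F11*, 0.69 for *C8g* and 0.81 for *Serpina1c*. Immune cell and interferon genes had -4.62 for *Marco*, -2.24 for *Timd4*, -3.01 for *S100a8* and -2.39 for *Gbp2*.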

How the results depend on the processing

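Fold changes and tests rested on 3 livers per genotype, and the number of DEGs at an adjusted *P* under 0.05 with FC above 1.5 depended on the method. It was 149 here, 1045 with DESeq2, 429 with all 12 libraries in a single fit, 243 with the replicate number as a block, 238 with limma on log2(FPKM + 1), 392 with limma on log2(FPKM + 0.1) and 83 after quantile normalization. It was 143 with upper-quartile scaling, 140 without a filter and 142 at a minimum count of 10. Leaving out a liver gave 7 to 189. All 155 called genes passed in DESeq2, and 6 passed in all 6 fits with a liver left out. Apart from the replicate block, which was not counted, 59 passed in every other setting run that kept all livers. At an unadjusted *P* under 0.05 with FC above 2 the 860 genes became 259 with limma on log2(FPKM + 1) and 209 after quantile normalization, and 588 to 1083 when a liver was left out. The first principal component held 49.4% of the variance, 36.7% where all genes had unit variance, and 48.0% to 56.3% when a liver was left out. The interaction count was 3137, and 2310 to 3084 when an ethanol-diet liver was left out, while no control-diet liver was left out. Of the interaction calls 1576 were positive and 1561 negative, against 806 and 2640 with limma on log2(FPKM + 1) and 831 and 2702 on log2(FPKM + 0.1). The cause of these changes was not tested.

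Whether replicate numbers pair the livers is not given in the labels. Deviations of same-numbered livers from their group means correlated at 0.32, 0.24 and -0.02. Livers numbered 1 and 2 correlated best with the same number of the other genotype, and livers numbered 3 with number 2. The 243 DEGs of the replicate block describe a shared number only. Library names also carry liver codes, some of them shared between the genotypes. On ethanol, WT liver 1 shared its code with *Ahr* HKO liver 1, and WT liver 3 with *Ahr* HKO liver 2. These WT livers correlated best with the *Ahr* HKO liver of their code, while *Ahr* HKO liver 2 correlated best with WT liver 2. A pairing or batch by these codes was not tested.

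Of the named genes' values under all alternatives, 2366 kept direction and side of the threshold, 193 passed it newly, 266 no longer passed it and 27 changed sign. None of those that changed sign was called. Sign changes on log2(FPKM + 1) and log2(FPKM + 0.1) were to -0.0211 and -0.0222 for *Ppp2r5d*, -0.0418 and -0.0423 for *Map1lc3b*, -0.0243 and -0.0284 for *Ncoa2*, -0.0330 and -0.0350 for *Ndufaf2*, -0.0882 and -0.0944 for *Ndufaf1*, -0.0403 and -0.0405 for *Rpl27* and -0.19 and -0.20 for *Lrrc59*. After quantile normalization they were to 0.0561 for *Cyp1a1*, 0.00850 for *Prkaa1*, -0.0920 for *Cyp2e1*, -0.0753 for *Cat*, -0.0896 for *Serpina1c*, 0.000119 for *Slc4a1* and -0.0381 for *Lrrc59*. With upper-quartile scaling *Lrrc59* was at -0.0275. With a liver left out *Cyp1a1* ranged from -0.24 to 0.14 (positive without WT liver 3, and at 0.12 without *Ahr* HKO liver 1), *Prkaa1* from -0.0891 to 0.0141 and *Cdh5* from -0.74 to 0.0370 (both positive without WT liver 2), and *Lrrc59* from -0.0166 (without *Ahr* HKO liver 2) to 0.0524.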
